A study of Gorilla gorilla gorilla with 13 samples.

Results

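The genes described here are the cadherins and protocadherins, calcium-dependent adhesion proteins of the cell surface. They were taken by symbol from the table of counts on the human build hg38: every gene named CDH followed by a number, except CDH2, and every gene whose symbol starts with PCDH. This gave 85 of the 18137 genes of the table. The unclustered members numbered 32, made up of 22 cadherins and 10 protocadherins. The other 53 belong to the clustered protocadherins, with 15 genes of the PCDHA cluster, 16 of PCDHB and 22 of PCDHG. They are described apart because genes of a cluster can share reads. Of the 85 members 83 passed the filter on low counts. PCDH20 had 10 counts over all libraries and PCDHA1 had 1 count, and neither was tested.

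The samples were sorted cells of gorilla (Gorilla gorilla gorilla) cerebral organoids, which are brain-like tissues grown in culture from pluripotent stem cells. All came from 1 induced pluripotent stem cell line, GC1, and were collected at week 8 of culture, within 3 days. The 13 libraries fall into BCL11B+ neurons (N, n = 2), basal intermediate progenitor cells (bIP, n = 3), basal radial glia (bRG, n = 4) and apical radial glia (aRG, n = 4), and the series compared these populations. Radial glia act as stem cells of the growing cortex, and intermediate progenitors are the dividing daughter cells that give rise to neurons. No genetic change or drug treatment of a group is named in the labels, and apart from BCL11B the labels do not say which antigens defined the sort. With 1 line and no word on separate cultures, p-values set a difference of populations against the spread among these libraries only. That spread is estimated over all 4 populations together and may be technical.

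Classical cadherins join cells through binding of like to like and are tied to actin by catenins inside the cell. Type I cadherins hold the epithelial junctions, and type II cadherins are worn in combinations by groups of neurons. In the developing cortex the adherens junctions at the ventricle hold the end feet of apical radial glia, and these junctions are lost as cells leave the ventricular surface. Unclustered (delta) protocadherins bind more weakly and act through their tails on the WAVE complex, which drives actin branching. In the clustered protocadherins each neuron uses a few of many alternative first exons, chosen by CTCF and cohesin, and the resulting mixture lets a neuron tell its own branches from those of other cells.

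Total counts per library lay between 5464721 and 12524938, and the members held 0.184% to 0.278% of them. Levels are CPM (the count scaled to library size, with TMM factors), in which 3 counts amount to 0.270 to 0.542 CPM. CPM is not corrected for gene length, so levels are compared between samples and not between genes. Library 3 of bRG stood apart from the other 12 on the second principal component of all genes, and 77 members had a count in it, against up to 84 in other libraries. Summed markers of radial glia lay at 94.7 to 119 CPM in N, 109 to 129 in bIP, 1867 to 3268 in bRG and 2411 to 3428 in aRG. Neuron markers ran the other way, at 3890 to 3959 CPM in N, 2520 to 3128 in bIP, 393 to 723 in bRG and 401 to 844 in aRG. Markers of intermediate progenitors, EOMES among them, went against the label of bIP, with 63.0 to 94.5 CPM in N, 85.9 to 259 in bIP, 504 to 665 in bRG and 159 to 409 in aRG. Markers of Cajal-Retzius neurons, an early RELN-expressing neuron type, were also high in bIP, at 1329 to 3523 CPM, against 201 to 238 in N, 51.8 to 119 in bRG and 49.4 to 117 in aRG. Summed markers of basal radial glia, HOPX among them, did not set bRG above aRG. They lay at 1142 to 1435 CPM in N, 598 to 916 in bIP, 1193 to 2127 in bRG and 1693 to 2272 in aRG. In bRG against aRG 5 of the 6 had negative log2 fold changes and none was called. The populations are called by their labels throughout.

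Unclustered cadherins and protocadherins differed between the populations in both directions, and few of the clustered genes were called. Among the 4 populations 16 of 31 unclustered members differed by edgeR's quasi-likelihood F-test, or 51.6%, beside 22.5% of all 16804 genes tested. Of the clustered members 3 of 52 were called, or 5.77%, and a gene that missed the threshold is not shown to be alike in the populations. A difference is called where the Benjamini-Hochberg adjusted p over all genes tested lies under 0.05. It was not adjusted over the 6 comparisons. Called in a comparison of 2 populations but not among the 4 were PCDH7, CDH16, PCDHA9, PCDHA10, PCDHGA3, PCDHGA6 and PCDHGC4, and also CDH2. In bulk RNA, fewer cells of a type and less RNA per cell cannot be told apart.

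The division fell between bIP and N on one side and both kinds of radial glia on the other. Relative to aRG, 7 unclustered members rose in N, where 10.4% of all genes tested rose, and 6 fell, where 9.37% of all genes fell. In bIP, 9 rose relative to aRG, where 8.47% of all genes rose, and 5 fell, where 9.98% fell. Relative to bRG, 8 rose in N, against 10.6% of all genes, and 7 fell, against 9.13%. In bIP, 10 rose relative to bRG, against 8.25% of all genes, and 4 fell, against 8.44%. In either direction the background was 19.8% for N against aRG and for N against bRG, 18.4% for bIP against aRG and 16.7% for bIP against bRG. Without N library 1, the unclustered members called numbered 6 in N against aRG and 9 in N against bRG, and without the unnumbered neuron library they numbered 7 and 9. In bRG against aRG no unclustered and no clustered member was called by edgeR, where 1.26% of all genes were, 0.0298% higher and 1.23% lower in bRG. Unadjusted, 3 of 31 unclustered and 4 of 52 clustered members lay under 0.05 there, beside 1592 of all 16804 genes tested. DESeq2 called 1 unclustered member in bRG against aRG, CDH6. In N against bIP the count was again 0 by edgeR, with a background of 0.113%, all of it lower in N. Unadjusted, 7 of 31 unclustered and 1 of 52 clustered members passed 0.05 in N against bIP, beside 1115 of all 16804 genes tested. DESeq2 called 1 member in N against bIP, CDH18. On the log2 scale the median over the tested unclustered members was 0.14 for N against aRG, -0.20 for N against bRG, 0.36 for bIP against aRG and 0.20 for bIP against bRG. Over all genes tested the medians were -0.05, -0.09, -0.04 and -0.09 in the same comparisons.

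**Figure D1:**
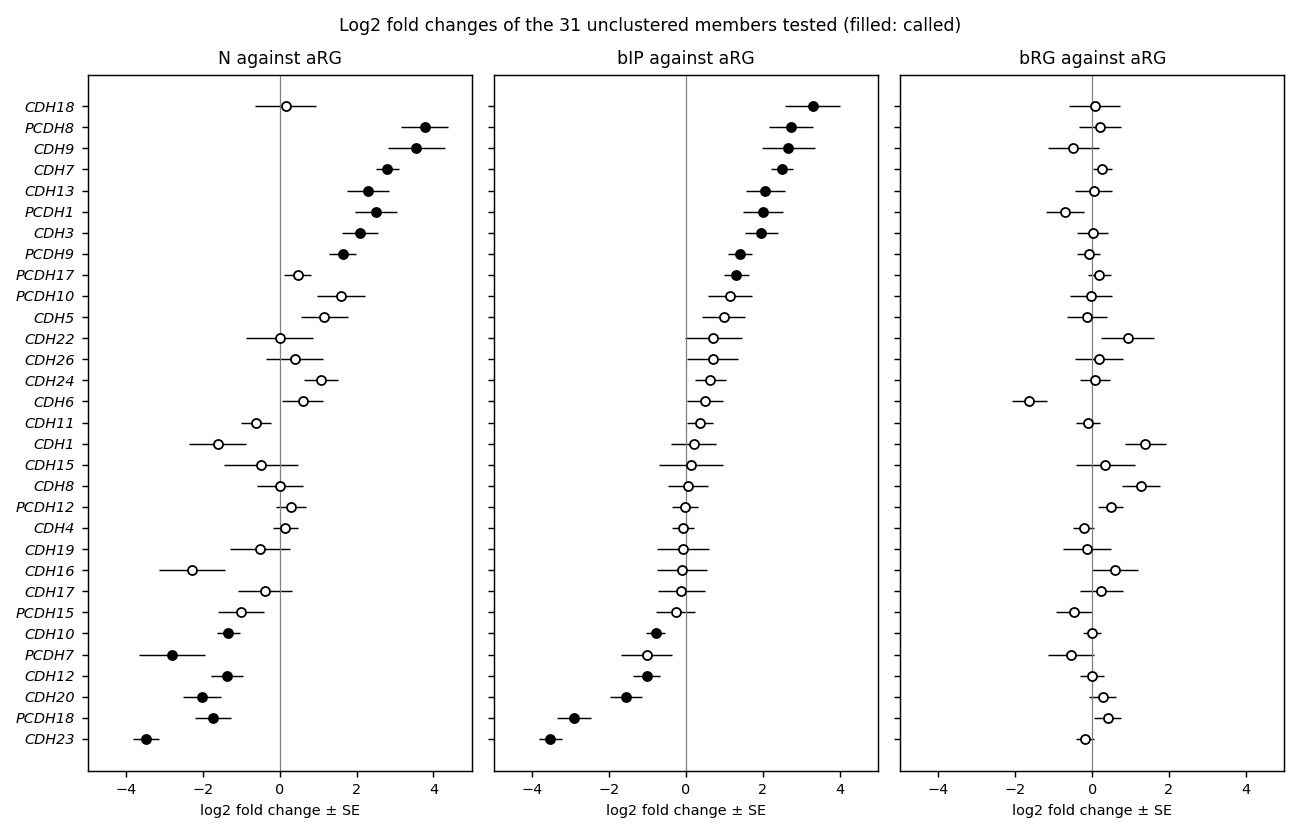
Log2 fold change with its standard error (x axis) of the 31 tested unclustered members (rows) in N, bIP and bRG, each against aRG. Filled points passed the edgeR test; 13 are filled for N, 14 for bIP and none for bRG, and each panel uses the same aRG libraries.

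Among the 4 type I cadherins, CDH3 was higher in N and bIP, CDH1 was lower in N than in bRG, and CDH4 and CDH15 were called in no comparison. CDH3 encodes P-cadherin, an adhesion protein best known from epithelia. It measured 54.7 and 36.5 CPM in N, 41.1, 42.1 and 42.8 in bIP, 8.03, 10.2, 3.42 and 21.6 in bRG, and 8.49, 11.8, 12.4 and 10.2 in aRG. Every N and bIP library lay above every radial glia library. The log2 fold change of CDH3 against aRG was 2.08 in N (SE 0.466, edgeR adjusted p = 0.00333) and 1.96 in bIP (SE 0.430, edgeR adjusted p = 0.00293). Against bRG it was 2.06 in N (edgeR adjusted p = 0.00389) and 1.95 in bIP (edgeR adjusted p = 0.00368). Both N calls ended without N library 1, at edgeR adjusted p = 0.0608 against aRG and 0.0629 against bRG. Where an N library is left out, the one that remains is assumed to vary like the other populations.

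CDH1, the E-cadherin of epithelial junctions, was low everywhere, with 0.858 and 0.840 CPM in N, 4.93, 1.70 and 2.52 in bIP, 2.73, 6.67, 9.08 and 8.95 in bRG, and 1.63, 3.71, 2.59 and 2.58 in aRG. The N values rest on 7 and 9 counts. Both N libraries lay below all others, and 3 of the 4 bRG libraries lay above every library of the other populations. CDH1 fell by 3.00 on the log2 scale in N against bRG (SE 0.769, edgeR adjusted p = 0.0096), and the edgeR adjusted p was 0.0836 without N library 1, 0.103 without the unnumbered neuron library and 0.0571 in the gorGor6 table. Summed epithelial markers did not follow CDH1, at 11.2 and 26.5 CPM in N, 8.38 to 32.0 in bIP, 10.3 to 19.4 in bRG and 10.3 to 15.4 in aRG.

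CDH4, the R-cadherin first described in retina, was called in no comparison, which does not show its levels to be alike. It measured 237 and 261 CPM in N, 252, 212 and 179.5 in bIP, 235, 134, 257 and 149 in bRG, and 300.4, 270.2, 135 and 197 in aRG. The groups overlapped in every comparison. Its log2 fold change was 0.14 in N against aRG, with a 95% interval of -0.50 to 0.78, and -0.07 in bIP against aRG, with an interval of -0.64 to 0.50. CDH15, the M-cadherin of muscle, averaged 0.901 ± 1.10 CPM in N, 1.42 ± 0.330 in bIP, 1.65 ± 1.46 in bRG and 1.31 ± 0.269 in aRG (SD). CDH2, the N-cadherin of neural junctions, which the rule leaves out, averaged 465 ± 7.90 CPM in N, 388 ± 29.6 in bIP, 575 ± 187 in bRG and 707 ± 111 in aRG. Its fall in bIP against aRG was called, at a log2 fold change of -0.86 (edgeR adjusted p = 0.0255).

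The type II cadherins, 13 of which were tested, split into members that were higher in bIP and N and members that were lower. Against aRG, 2 rose and 3 fell in N, and 3 rose and 3 fell in bIP. CDH7 showed the most even rise. It measured 125 and 138 CPM in N, 109, 94.6 and 115 in bIP, 16.4, 27.4, 24.3 and 22.2 in bRG, and 21.1, 24.5, 11.0 and 18.7 in aRG. No N or bIP library came near the radial glia. The log2 fold change of CDH7 against aRG was 2.80 in N (SE 0.301, edgeR adjusted p = 2.97e-06) and 2.50 in bIP (SE 0.280, edgeR adjusted p = 4.4e-06). Against bRG it was 2.54 in N (edgeR adjusted p = 1.12e-05) and 2.23 in bIP (edgeR adjusted p = 2.08e-05). None of the alternatives, the removal of each library included, ended a CDH7 call.

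CDH9, which in mouse takes part in forming synapses of the hippocampus, was higher in the same populations but less evenly. It measured 22.7 and 59.3 CPM in N, 12.5, 9.22 and 43.9 in bIP, 3.42, 3.34, 0.118 and 3.05 in bRG, and 2.35, 3.71, 5.74 and 1.96 in aRG. Library 3 of bRG held 1 count of it. N and bIP did not overlap the radial glia, but within N and within bIP 1 library stood well above the rest. The log2 fold change of CDH9 against aRG was 3.56 in N (SE 0.744, edgeR adjusted p = 0.00191) and 2.66 in bIP (SE 0.689, edgeR adjusted p = 0.0103). Against bRG it was 4.05 in N (edgeR adjusted p = 0.000871) and 3.14 in bIP (edgeR adjusted p = 0.0042). Without bIP library 3 the bIP values were 1.64 against aRG (edgeR adjusted p = 0.145) and 2.13 against bRG (0.06), so both calls ended. Without the unnumbered neuron library the N value against aRG was 2.71 (edgeR adjusted p = 0.0625).

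CDH18 was high in bIP and low in the other populations. It measured 6.74 and 3.55 CPM in N, 65.2, 42.7 and 28.6 in bIP, 7.01, 8.01, 0.118 and 4.19 in bRG, and 1.63, 4.00, 8.81 and 3.71 in aRG. The 3 bIP libraries lay above all others. In bIP its log2 fold change was 3.30 against aRG (SE 0.718, edgeR adjusted p = 0.00281) and 3.24 against bRG (SE 0.717, edgeR adjusted p = 0.00381), and no alternative ended either call. For N against bIP it was -3.15 (SE 0.938), which edgeR did not call (adjusted p = 0.383). That difference was called by DESeq2 (adjusted p = 0.0168), by edgeR on N and bIP alone (0.0272) and by edgeR with bRG library 3 out of the shared fit (0.0335). Across bIP libraries 1, 2 and 3 the summed Cajal-Retzius markers were 3523, 2490 and 1329 CPM, in the same order as CDH18. Summed neuron markers ran in that order too, at 3128, 2763 and 2520 CPM. The part of either cell type in the CDH18 level was not tested.

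CDH6, known in mouse from forebrain boundaries and retinal circuits, was lowest in bRG. It measured 21.8 and 62.1 CPM in N, 26.7, 31.7 and 58.4 in bIP, 12.1, 14.2, 2.83 and 6.66 in bRG, and 39.0, 29.7, 25.8 and 16.8 in aRG. All 4 bRG libraries lay below every library of the other populations. Against bRG, CDH6 rose by 2.23 on the log2 scale in N (SE 0.528, edgeR adjusted p = 0.0055) and by 2.13 in bIP (SE 0.489, edgeR adjusted p = 0.00509). The N value was 1.30 without the unnumbered neuron library (edgeR adjusted p = 0.244). For bRG against aRG the log2 fold change was -1.63, with a 95% interval of -2.54 to -0.73, and edgeR gave an adjusted p of 0.134 while DESeq2 gave 0.0267. The edgeR adjusted p of that difference ran from 0.0531 to 0.301 over the alternatives and never passed. Choroid plexus and hem are an apical tissue next to the cortex. Their summed markers lay at 92.5 to 319 CPM in N, 166 to 307 in bIP, 214 to 1278 in bRG and 1598 to 7816 in aRG. Most of the aRG sum was TTR, at a mean of 4512 CPM. Of the 6 markers, 4 were lower in bRG than in aRG. RSPO3 and LMX1A were not, with means of 36.1 and 12.6 CPM in bRG and 29.1 and 11.1 in aRG. The part of choroid plexus and hem cells in the CDH6 difference was not tested.

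**Figure D2:**
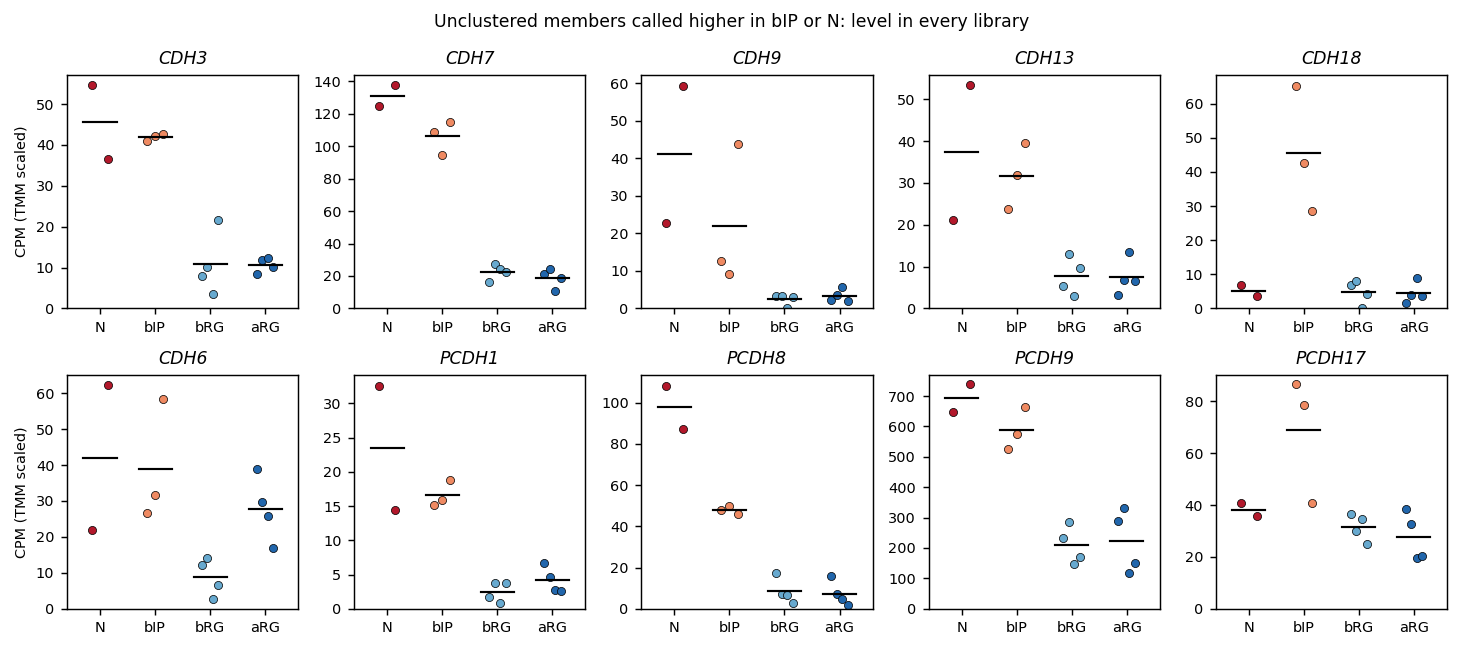
CPM (y axis, linear from 0) in every library of N, bIP, bRG and aRG (x axis) for the 10 unclustered members called higher in bIP or N in at least 1 comparison; points are libraries and bars are means. CDH18 is highest in bIP (28.6 to 65.2 CPM), and CDH6 is lowest in bRG (2.83 to 14.2 CPM).

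The type II cadherins CDH10, CDH12 and CDH20 were lower in N and bIP. CDH20 measured 2.70 and 3.45 CPM in N, 3.73, 5.83 and 3.15 in bIP, 9.57, 13.3, 22.3 and 15.5 in bRG, and 11.4, 13.7, 12.6 and 12.6 in aRG. The radial glia libraries lay above all the others. CDH20 fell by 2.02 on the log2 scale in N (SE 0.493, edgeR adjusted p = 0.00637) and by 1.57 in bIP (SE 0.411, edgeR adjusted p = 0.011), both against aRG. Against bRG it fell by 2.30 in N (edgeR adjusted p = 0.00293) and by 1.84 in bIP (edgeR adjusted p = 0.00433). The call for bIP against aRG ended without bIP library 1 (edgeR adjusted p = 0.0563) or 3 (0.0641). For N against aRG it ended without N library 1 (edgeR adjusted p = 0.0903) or the unnumbered neuron library (0.0518), and for N against bRG without N library 1 (0.0543).

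CDH10 fell by a smaller factor. It measured 39.5 and 48.4 CPM in N, 59.0, 68.7 and 64.1 in bIP, 101, 97.7, 146 and 94.5 in bRG, and 153, 111, 90.5 and 88.3 in aRG. The order N, bIP, radial glia held in every library. CDH10 fell by 1.33 on the log2 scale in N against aRG (SE 0.300, edgeR adjusted p = 0.0035) and by 1.32 in N against bRG (edgeR adjusted p = 0.0041), and both calls ended without N library 1 (edgeR adjusted p = 0.0725 and 0.0749). In bIP it fell by 0.79 against aRG (edgeR adjusted p = 0.0356) and by 0.78 against bRG (edgeR adjusted p = 0.0415). These 2 calls were at the threshold. For bIP against aRG the edgeR adjusted p was 0.0636 to 0.136 without aRG library 1 or 2 or any 1 of the bIP libraries, and 0.167 in the gorGor6 table. For bIP against bRG it was 0.0571 to 0.147 without bRG library 1 or 3 or any 1 of the bIP libraries, 0.0582 with only these populations in the fit and 0.225 in the gorGor6 table.

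CDH12, a brain-expressed type II cadherin, measured 15.9 and 24.1 CPM in N, 22.2, 26.3 and 28.1 in bIP, 36.7, 32.0, 92.8 and 47.1 in bRG, and 68.1, 40.0, 50.1 and 50.5 in aRG. Neither N nor bIP overlapped the radial glia, and bRG library 3 was the highest of all. CDH12 fell by 1.38 on the log2 scale in N against aRG (edgeR adjusted p = 0.0239) and against bRG (0.0242), and by 1.03 in bIP against aRG (0.0496). Its fall in bIP against bRG, also -1.03, was not called (edgeR adjusted p = 0.0529). The call for bIP against aRG ended without aRG library 1, 3 or 4 or any 1 of the bIP libraries (edgeR adjusted p of 0.0784 to 0.175), without the low-count filter (0.0531) and in the gorGor6 table (0.0975). For N against aRG the edgeR adjusted p was 0.232 without N library 1, 0.069 without the unnumbered neuron library and 0.0577 without aRG library 1. For N against bRG it was 0.222 without N library 1, 0.0742 without the unnumbered neuron library and 0.0839 with only these populations in the fit.

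The other 6 type II cadherins were called in no comparison. CDH24 averaged 57.5 ± 23.3 CPM in N, 42.5 ± 15.5 in bIP, 28.8 ± 13.1 in bRG and 27.4 ± 12.0 in aRG, with a log2 fold change in N against aRG of 1.07 and a 95% interval of 0.18 to 1.96 (edgeR adjusted p = 0.113). CDH8, a marker of cortical areas and connections in mouse, had 5.27 and 18.3 CPM in N, 7.76, 13.0 and 15.7 in bIP, 10.4, 21.9, 60.2 and 20.2 in bRG, and 8.31, 15.8, 11.6 and 11.2 in aRG. The 60.2 CPM of CDH8 belongs to bRG library 3, and its log2 fold change in bRG against aRG was 1.26 (edgeR adjusted p = 0.379). CDH11, common in mesenchyme, averaged 18.2 ± 4.97 CPM in N, 35.9 ± 11.4 in bIP, 25.8 ± 6.15 in bRG and 28.0 ± 10.4 in aRG. Summed mesenchyme markers lay at 27.6 to 73.3 CPM in N, 60.3 to 106 in bIP, 69.6 to 97.4 in bRG and 108 to 334 in aRG. CDH5, the VE-cadherin of blood vessels, averaged 8.34 ± 5.19 CPM in N, 7.34 ± 2.75 in bIP, 3.36 ± 1.56 in bRG and 3.69 ± 1.35 in aRG. Summed endothelial markers were lower in N (10.7 and 20.4 CPM) and bIP (12.3 to 21.8) than in aRG (44.0 to 109). Of the 6 endothelial markers 2 were higher and 4 lower in bIP against aRG, and 1 was called lower. CLDN5 alone averaged 52.1 CPM in aRG and 1.39 in bIP. CDH19 and CDH22 stayed between 1.60 and 3.05 CPM in the mean of every population.

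Among the 5 atypical cadherins CDH23 was lower in N and bIP and CDH13 was higher. CDH23 forms the upper part of the tip links of inner ear hair cells and has a long tail that does not bind catenins as classical cadherins do. It measured 36.4 and 24.4 CPM in N, 25.2, 32.4 and 30.5 in bIP, 286, 225, 361 and 322 in bRG, and 337, 231, 422 and 364 in aRG. Every radial glia library lay far above every other library, and bRG and aRG overlapped. CDH23 fell by 3.48 on the log2 scale in N (SE 0.343, edgeR adjusted p = 1.27e-06) and by 3.53 in bIP (SE 0.288, edgeR adjusted p = 1.63e-07), both against aRG. Against bRG it fell by 3.29 in N (edgeR adjusted p = 3.03e-06) and by 3.34 in bIP (edgeR adjusted p = 6.39e-07), and no alternative ended any of these calls. For bRG against aRG the log2 fold change was -0.18, with a 95% interval of -0.64 to 0.27. The span of CDH23 holds VSIR and the gorilla counterpart of C10orf105 in the RefSeq annotation of another gorilla assembly. VSIR averaged 0.434 CPM in N, 1.57 in bIP, 4.03 in bRG and 5.21 in aRG, and C10orf105 averaged 0.370 CPM in N, 0.380 in bIP, 3.02 in bRG and 2.46 in aRG. Both were lower in N and bIP too, and reads that overlapping genes share cannot be told apart here because the use of strand is not given.

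CDH23's partner in the tip link, PCDH15, did not share the pattern. It averaged 6.38 ± 1.40 CPM in N, 10.6 ± 1.96 in bIP, 9.21 ± 5.14 in bRG and 12.7 ± 4.82 in aRG. Its groups overlapped in every comparison but N against bIP, and its log2 fold change in bIP against aRG was -0.26, with a 95% interval of -1.25 to 0.73.

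CDH13, or T-cadherin, is held in the membrane by a lipid anchor and has no tail inside the cell. It measured 21.2 and 53.4 CPM in N, 23.7, 31.8 and 39.5 in bIP, 5.30, 13.1, 2.95 and 9.61 in bRG, and 3.25, 6.85, 13.5 and 6.49 in aRG. N and bIP lay above the radial glia without overlap. CDH13 rose by 2.29 on the log2 scale in N (SE 0.550, edgeR adjusted p = 0.00567) and by 2.06 in bIP (SE 0.508, edgeR adjusted p = 0.00738), both against aRG. Against bRG it rose by 2.26 in N (edgeR adjusted p = 0.00667) and by 2.02 in bIP (edgeR adjusted p = 0.00932). Without the unnumbered neuron library the N values were 1.49 against aRG (edgeR adjusted p = 0.1997) and 1.45 against bRG (0.217).

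CDH16, a kidney cadherin, was called lower in N than in bRG at a low level (edgeR adjusted p = 0.0267, log2 fold change -2.88 with SE 0.876), and is named here after its values were seen. It measured 0.245 and 0.466 CPM in N, which are 2 and 5 counts, 1.49, 1.59 and 1.98 in bIP, 3.25, 3.78, 0.825 and 3.14 in bRG, and 1.63, 2.00, 2.11 and 1.55 in aRG. Both N libraries lay below all others. The call ended without either N library (edgeR adjusted p = 0.192 and 0.121), without bRG library 2 (0.0508), in the gorGor6 table (0.123) and with only these populations in the fit (0.137). CDH17, of liver and intestine, and CDH26 were called in no comparison and averaged 2.20 to 6.06 CPM over the populations.

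**Figure D3:**
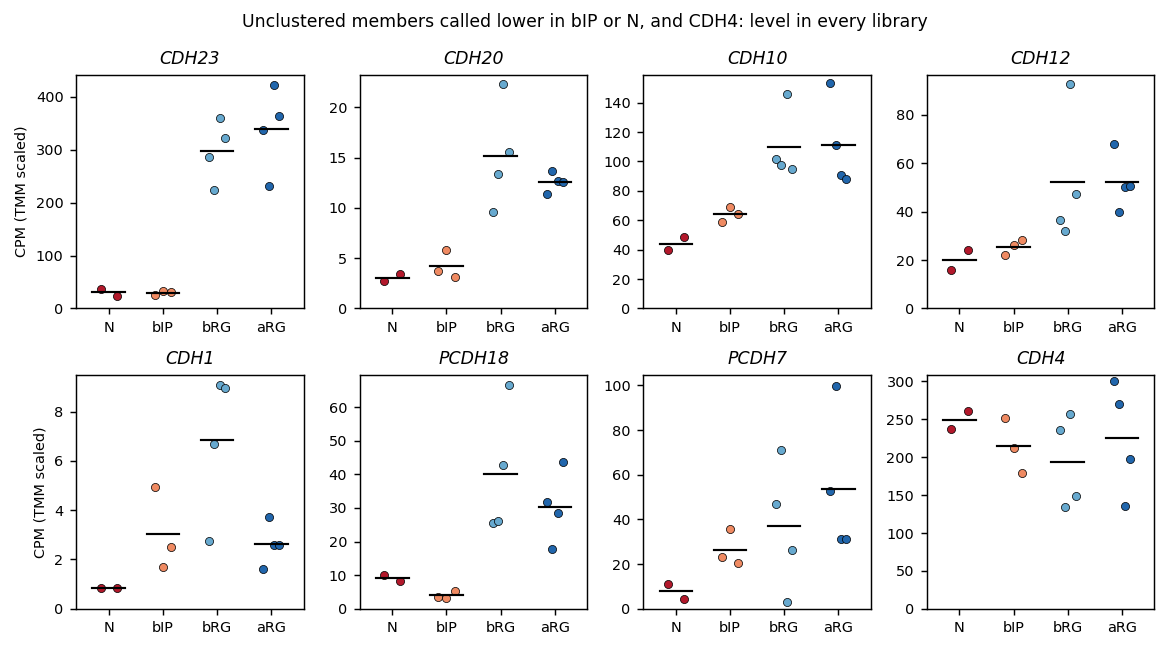
CPM (y axis, linear from 0) in every library of N, bIP, bRG and aRG (x axis) for 7 unclustered members called lower in bIP or N in at least 1 comparison, and for CDH4, which was called in none; points are libraries and bars are means. CDH23 lies at 24.4 to 36.4 CPM in N and bIP and at 225 to 422 CPM in radial glia.

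Among the delta protocadherins PCDH8, PCDH9 and PCDH1 were higher in both N and bIP, PCDH17 in bIP, and PCDH18 and PCDH7 were lower. PCDH9, a delta-1 protocadherin of cortical neurons, measured 648 and 739 CPM in N, 524, 575 and 664 in bIP, 234, 285, 147 and 171 in bRG, and 289, 333, 117 and 150.5 in aRG. No N or bIP library overlapped the radial glia. The log2 fold change of PCDH9 against aRG was 1.64 in N (SE 0.354, edgeR adjusted p = 0.00247) and 1.40 in bIP (SE 0.323, edgeR adjusted p = 0.00444). Against bRG it was 1.73 in N (edgeR adjusted p = 0.00182) and 1.49 in bIP (edgeR adjusted p = 0.0033). None of these calls ended under an alternative. Within the radial glia, libraries 1 and 2 of either population lay above libraries 3 and 4. PCDH9 has antisense genes, listed in the gorGor6 table, and without a stated use of strand their reads cannot be told apart from its own.

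PCDH8, the delta-2 protocadherin known in rat neurons as arcadlin, which is induced by activity, showed a further step between bIP and N. It measured 108 and 87.4 CPM in N, 47.8, 49.7 and 46.0 in bIP, 17.4, 7.01, 6.48 and 2.66 in bRG, and 15.7, 7.28, 4.60 and 1.75 in aRG. All groups except the radial glia pair were free of overlap. PCDH8 rose by 3.77 on the log2 scale in N (SE 0.619, edgeR adjusted p = 0.000215) and by 2.74 in bIP (SE 0.571, edgeR adjusted p = 0.00201), both against aRG. Against bRG it rose by 3.56 in N (edgeR adjusted p = 0.000402) and by 2.53 in bIP (edgeR adjusted p = 0.00409). For N against bIP the log2 fold change was 1.03 (SE 0.640, edgeR adjusted p = 0.866), which did not pass the test. No alternative ended the 4 calls.

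PCDH1, a delta-1 member, measured 32.6 and 14.4 CPM in N, 15.2, 15.9 and 18.8 in bIP, 1.71, 3.78, 0.825 and 3.71 in bRG, and 6.68, 4.71, 2.78 and 2.58 in aRG. The lowest N library was still above every radial glia library. PCDH1 rose by 2.50 on the log2 scale in N (SE 0.555, edgeR adjusted p = 0.00311) and by 2.01 in bIP (SE 0.513, edgeR adjusted p = 0.00936), both against aRG. Against bRG it rose by 3.20 in N (edgeR adjusted p = 0.00048) and by 2.71 in bIP (edgeR adjusted p = 0.00132). The call for N against aRG ended without N library 1 (1.80, edgeR adjusted p = 0.114).

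PCDH17, which in mouse neurons moves along axons and recruits the WAVE complex, was higher in bIP. It measured 40.7 and 35.7 CPM in N, 86.9, 78.6 and 41.0 in bIP, 36.7, 29.9, 34.5 and 24.9 in bRG, and 38.7, 32.5, 19.5 and 20.3 in aRG. Libraries 1 and 2 of bIP stood above the rest, and bIP library 3 was close to N. PCDH17 rose by 1.31 on the log2 scale in bIP against aRG (SE 0.315, edgeR adjusted p = 0.00596) and by 1.13 against bRG (SE 0.314, edgeR adjusted p = 0.0182). The call against bRG ended without bIP library 1 (edgeR adjusted p = 0.114), bIP library 2 (0.0858) or bRG library 4 (0.0555). As with CDH18, the bIP libraries followed the order of the Cajal-Retzius markers and of the neuron markers. The part of either cell type was not tested.

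PCDH18, a delta-2 protocadherin whose mouse protein binds the Reelin pathway adaptor DAB1, measured 10.2 and 8.12 CPM in N, 3.58, 3.07 and 5.39 in bIP, 25.5, 26.0, 42.8 and 66.4 in bRG, and 31.8, 17.7, 28.4 and 43.6 in aRG. The radial glia were highest, and bIP lay below N without overlap. PCDH18 fell by 1.73 on the log2 scale in N (SE 0.478, edgeR adjusted p = 0.0147) and by 2.91 in bIP (SE 0.437, edgeR adjusted p = 9.36e-05), both against aRG. Against bRG it fell by 2.14 in N (edgeR adjusted p = 0.00425) and by 3.31 in bIP (edgeR adjusted p = 4.2e-05). The call for N against aRG ended without N library 1 (edgeR adjusted p = 0.0787) or the unnumbered neuron library (0.153), and that for N against bRG without the unnumbered neuron library (0.0759). For N against bIP the log2 fold change was 1.17, and the edgeR adjusted p of 0.677 did not pass.

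PCDH7, a delta-1 protocadherin, varied widely among the radial glia. It measured 11.3 and 4.20 CPM in N, 23.0, 35.5 and 20.7 in bIP, 47.0, 71.2, 3.07 and 26.3 in bRG, and 52.9, 99.9, 31.2 and 31.2 in aRG. N lay below all bIP and aRG libraries, while bRG library 3 lay below N. PCDH7 fell by 2.80 on the log2 scale in N against aRG (SE 0.856, edgeR adjusted p = 0.0266). The call ended without aRG library 2 (-2.32, edgeR adjusted p = 0.0637), without N library 1 (-3.67, 0.0643) and without the unnumbered neuron library (-2.24, 0.243).

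PCDH10, PCDH12 and PCDH15 were called in no comparison. PCDH10, which in mouse guides axons of the forebrain, measured 24.0 and 31.8 CPM in N, 20.8, 8.80 and 32.2 in bIP, 11.4, 17.6, 1.53 and 5.81 in bRG, and 11.6, 6.57, 10.9 and 8.04 in aRG. N did not overlap the radial glia, and its log2 fold change in N against aRG was 1.59, with a 95% interval of 0.37 to 2.81 (edgeR adjusted p = 0.0851). PCDH12, known from endothelium, averaged 19.2 ± 2.01 CPM in N, 15.5 ± 3.24 in bIP, 22.0 ± 8.46 in bRG and 15.8 ± 2.98 in aRG, and RNF14 overlaps its span in the RefSeq annotation.

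Taking all libraries together, 7 of 31 tested unclustered members had all N and bIP libraries above all radial glia libraries, or 22.6%, against 8.68% of all genes tested. They were CDH3, CDH7, CDH9, CDH13, PCDH1, PCDH8 and PCDH9. The reverse held for 5, or 16.1%, against 7.39% of all genes, and these were CDH10, CDH12, CDH20, CDH23 and PCDH18. Of the 52 tested clustered members 1, PCDHGB4, had the first pattern, or 1.92%, and none had the second.

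Few clustered protocadherins were called gene by gene, while the summed reads of the PCDHA cluster were higher in N and bIP. The PCDHA sum was 421 and 448 CPM in N, 338, 393 and 419 in bIP, 315, 248, 337 and 264 in bRG, and 258, 219, 219 and 214 in aRG. N and bIP lay clear of aRG, while bRG and aRG overlapped. The lowest N library was only just above the highest bIP library (421 against 419 CPM). The lowest bIP library was only just above the highest bRG library (338 against 337 CPM). Margins this narrow can turn on the scaling. The mean of N was 1.91 times that of aRG and 1.49 times that of bRG, and the mean of bIP was 1.68 times that of aRG. The PCDHG sum averaged 302 ± 30.3 CPM in N, 293 ± 37.4 in bIP, 236 ± 17.9 in bRG and 213 ± 35.3 in aRG, and N against aRG did not overlap, while bIP against aRG did. The PCDHB sum averaged 408 ± 96.2 CPM in N, 316 ± 40.6 in bIP, 329 ± 112 in bRG and 310.0 ± 70.6 in aRG, and its groups overlapped in every comparison. These sums are descriptions without a test. The split of shared reads within a cluster does not change them if each read was counted once, but the counting tool is not given.

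**Figure D4:**
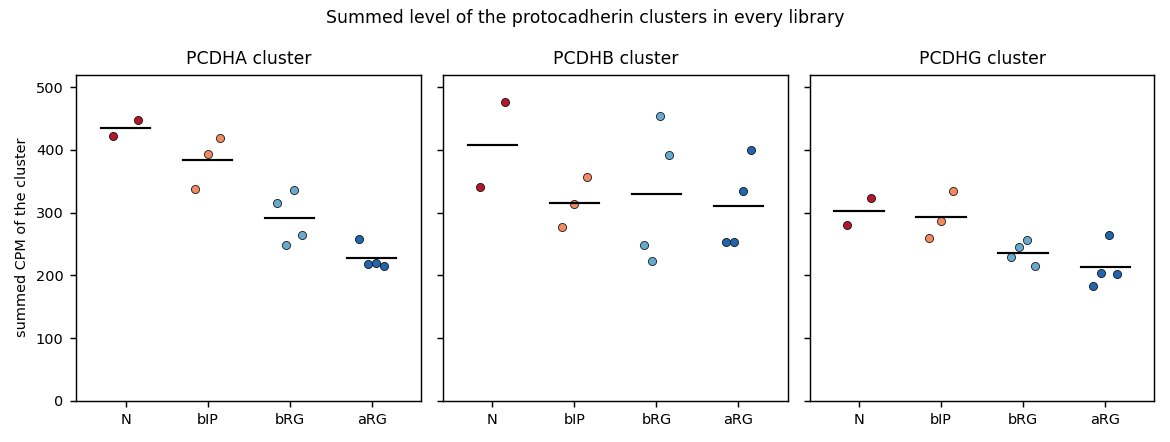
Summed CPM of all genes of the PCDHA, PCDHB and PCDHG clusters (y axis, linear from 0) in every library of N, bIP, bRG and aRG (x axis); points are libraries and bars are means. The PCDHA sum lies at 421 to 448 CPM in N, 338 to 419 in bIP, 248 to 337 in bRG and 214 to 258 in aRG, and the PCDHB sums overlap.

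Most log2 fold changes within the clusters were positive in N against aRG. In N against aRG the median over the 14 tested PCDHA genes was 0.99 and all 14 were positive, of which 2 were called. For PCDHB the median was 0.53 with 15 of 16 positive, and for PCDHG 0.41 with 15 of 22 positive, beside -0.05 over all genes tested. Genes of a cluster can share reads, so their number is not a number of independent observations. Called in N against aRG were 3 clustered members, in N against bRG 3, in bIP against aRG 4 and in bIP against bRG 2, all of them higher in N or bIP, and these shares of 3.85% to 7.69% lay below the background of each comparison given above. In N against aRG 1 clustered member was called without N library 1 and none without the unnumbered neuron library, and in N against bRG none without the unnumbered neuron library and 5 without bRG library 2. In bIP against aRG 1 was called without bIP library 2 and 2 without bIP library 3, and in bIP against bRG 1 without bIP library 1 or 2 and none without bIP library 3. In the reads of the PCDHA cluster PCDHA4, PCDHA9 and PCDHA10 together took 66.5%, while the 3 leading genes took 41.6% in PCDHB and 40.5% in PCDHG. These shares of reads were not corrected for gene length.

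PCDHA4 measured 177 and 159 CPM in N, 119, 150.0 and 131 in bIP, 149, 104, 139 and 92.6 in bRG, and 138, 95.2, 79.4 and 76.3 in aRG. N lay above all other libraries, and the difference from aRG was just short of a call (log2 fold change 0.79, edgeR adjusted p = 0.0538). With bRG library 3 out of the shared fit it was called, as one of 5 clustered members in N against aRG. PCDHA6 was lowest in aRG, with 10.0 and 9.98 CPM in N, 8.81, 5.73 and 11.4 in bIP, 4.96, 4.23, 8.49 and 7.04 in bRG, and 3.07, 3.00, 2.11 and 3.09 in aRG. Every other library lay above the aRG libraries. PCDHA6 rose by 1.83 on the log2 scale in N (SE 0.482, edgeR adjusted p = 0.0109) and by 1.62 in bIP (SE 0.442, edgeR adjusted p = 0.0143), both against aRG. The call of N ended without N library 1 (edgeR adjusted p = 0.0674) or the unnumbered neuron library (0.0697), and that of bIP without bIP library 3 (0.0887).

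PCDHA11 was lowest in bRG on average, with 31.5 and 29.8 CPM in N, 26.7, 22.7 and 22.6 in bIP, 12.1, 8.01, 11.0 and 9.71 in bRG, and 25.1, 18.8, 6.89 and 15.6 in aRG. N and bIP did not overlap bRG, and aRG spanned most of the range. PCDHA11 rose by 1.59 on the log2 scale in N against bRG (SE 0.404, edgeR adjusted p = 0.0091) and by 1.23 in bIP against bRG (SE 0.369, edgeR adjusted p = 0.0274). The call of N ended without N library 1 (edgeR adjusted p = 0.064) or the unnumbered neuron library (0.0556). That of bIP ended without bRG library 2 or 4 or any 1 of the bIP libraries (edgeR adjusted p of 0.0595 to 0.0993).

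PCDHA9 measured 48.8 and 65.5 CPM in N, 43.4, 72.6 and 82.7 in bIP, 28.7, 43.4, 66.4 and 49.5 in bRG, and 19.0, 20.3, 43.2 and 34.4 in aRG. The lowest bIP library was barely above the highest aRG library. It rose by 1.18 on the log2 scale in bIP against aRG (SE 0.345, edgeR adjusted p = 0.0219), and this fell to 0.66 in the gorGor6 table (edgeR adjusted p = 0.679). Without aRG library 1 or 2 or bIP library 2 or 3 the edgeR adjusted p was 0.065 to 0.107. PCDHA10, named after its values were seen, rose by 1.01 in N against aRG (SE 0.321, edgeR adjusted p = 0.0322) and averaged 54.4 ± 12.9 CPM in N and 27.0 ± 5.63 CPM in aRG. Its call ended without aRG library 2, 3 or 4 or either N library (edgeR adjusted p of 0.054 to 0.298) and in the gorGor6 table (0.056).

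In the PCDHB cluster, whose genes are single exons without a shared end, PCDHB10 alone was called. It measured 44.7 and 57.8 CPM in N, 38.8, 46.9 and 41.1 in bIP, 16.4, 20.7, 46.4 and 25.2 in bRG, and 19.9, 17.6, 17.1 and 22.1 in aRG. N and bIP lay above aRG, and bRG library 3 was at the level of bIP. PCDHB10 rose by 1.42 on the log2 scale in N against aRG (SE 0.352, edgeR adjusted p = 0.00723) and by 1.14 in bIP against aRG (SE 0.321, edgeR adjusted p = 0.0171). The call of N ended without the unnumbered neuron library (edgeR adjusted p = 0.104) and that of bIP without bIP library 2 (0.072). In the gorGor6 table PCDHB10 is listed at 0 in all libraries, so neither difference could be recomputed there.

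PCDHB9, also at 0 in the gorGor6 table, averaged 12.9 ± 4.58 CPM in N, 10.5 ± 4.75 in bIP, 6.63 ± 3.92 in bRG and 4.81 ± 2.00 in aRG. Its log2 fold change in N against aRG was 1.43, with an edgeR adjusted p of 0.0844. PCDHB5 averaged 48.3 ± 13.1 CPM in N, 41.5 ± 12.0 in bIP, 44.8 ± 15.1 in bRG and 67.1 ± 24.4 in aRG, and it was the one PCDHB gene whose mean was highest in aRG. PCDHB7 ranged from 0.245 CPM, or 2 counts, to 6.72 CPM in the 2 libraries of N. It averaged 0.681 ± 0.207 CPM in bIP, 2.37 ± 1.27 in bRG and 2.90 ± 2.00 in aRG.

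In the PCDHG cluster PCDHGA3, PCDHGA6 and PCDHGC4 were called in comparisons of 2 populations. None of the 22 PCDHG genes passed the F-test among the 4 populations. There the edgeR adjusted p was 0.0654 for PCDHGA3, 0.0858 for PCDHGA6 and 0.0538 for PCDHGC4. PCDHGA3 measured 39.6 and 70.4 CPM in N, 43.4, 35.9 and 84.5 in bIP, 22.0, 20.6, 20.4 and 33.7 in bRG, and 24.8, 22.7, 50.6 and 40.2 in aRG. N and bIP lay above bRG, and aRG overlapped all of them. Against bRG it rose by 1.18 on the log2 scale in N (edgeR adjusted p = 0.0449) and by 1.18 in bIP (edgeR adjusted p = 0.0328). The call of N ended without bRG library 1, 2 or 3 (edgeR adjusted p of 0.0571 to 0.0858) or the unnumbered neuron library (log2 fold change 0.72, adjusted p = 0.446), with DESeq2 size factors (0.0535), in the gorGor6 table (0.0585) and with only these populations in the fit (0.0769). That of bIP ended without bRG library 1, 2 or 3 (edgeR adjusted p of 0.054 to 0.0711) or bIP library 3 (log2 fold change 0.71, adjusted p = 0.26).

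PCDHGA6 measured 39.2 and 24.5 CPM in N, 45.5, 47.6 and 32.1 in bIP, 32.6, 35.4, 19.6 and 13.3 in bRG, and 19.2, 24.3, 14.9 and 15.3 in aRG. Only N and bIP cleared aRG, N by a narrow margin. It rose by 1.18 on the log2 scale in bIP against aRG (SE 0.349, edgeR adjusted p = 0.0231), and the edgeR adjusted p was 0.0681 to 0.0964 without aRG library 3 or 4 or bIP library 1 or 2. PCDHGC4, one of the C-type genes at the end of the cluster, which mouse neurons need for survival, measured 2.70 and 6.06 CPM in N, 1.64, 2.44 and 2.25 in bIP, 0.854, 0.890, 0.236 and 0.286 in bRG, and 0.723, 2.00, 4.60 and 2.99 in aRG. N and bIP lay above bRG, where the values rest on 2 to 8 counts per library, and aRG overlapped all of them. PCDHGC4 rose by 2.95 on the log2 scale in N against bRG (SE 0.794, edgeR adjusted p = 0.013), and the call ended without the unnumbered neuron library (2.26, edgeR adjusted p = 0.188) and with only these populations in the fit (2.89, 0.0834).

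The levels of some clustered genes depended on the table. A second deposited table holds counts on the gorilla build gorGor6, with 11835004 to 26173260 counts per library. Members with at least 100 hg38 counts had a median of 149% of their hg38 counts there for unclustered genes, 217% for PCDHA, 221% for PCDHB and 195% for PCDHG, beside 169% for all genes. PCDHB9 held 864 counts in the hg38 table and PCDHB10 held 3711, and both were at 0 in the gorGor6 table. PCDHB11 held 191 counts there against 1413, PCDHB16 held 1313 against 5368, PCDHGC3 held 653 against 1710 and PCDHGC5 held 5 against 150. Of the PCDHB genes 4 of 16 held under 50% of their hg38 counts, against 6.16% of all genes, and of the unclustered members none did. PCDHB genes are close paralogs, so the division of reads among them is uncertain in either table. CDH7 held 70.3% of its hg38 counts, the lowest share of an unclustered member, and its calls were the same in both tables.

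**Figure D5:**
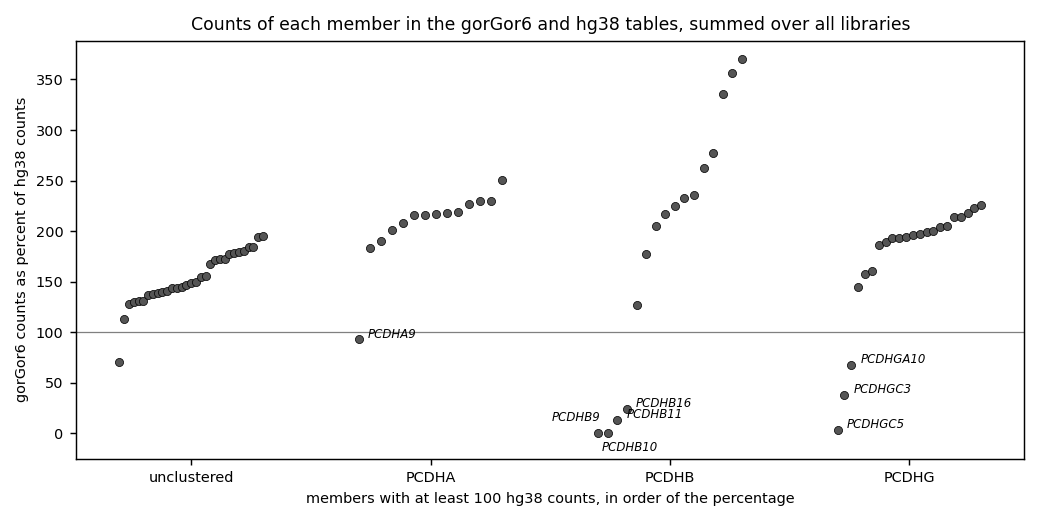
Counts in the gorGor6 table as a percentage of counts in the hg38 table, summed over 13 libraries (y axis), for each member with at least 100 hg38 counts, ordered by that percentage within the unclustered, PCDHA, PCDHB and PCDHG groups (x axis); the grey line marks 100%. Clustered members under 100% are named, and PCDHB9 and PCDHB10 are at 0.

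Lists of genes that work with cadherins were read against the 19.8% of all genes called in N against aRG and the 18.4% called in bIP against aRG. Of 15 tested catenins and junction partners, 4 rose and 3 fell in N against aRG, or 46.7%, at a list median of -0.04 (log2), and 3 rose and 4 fell in bIP against aRG. CTNNA2, the neuronal alpha-catenin, averaged 183 ± 63.6 CPM in N, 149 ± 34.9 in bIP, 22.6 ± 8.48 in bRG and 29.8 ± 8.70 in aRG. In N against aRG its log2 fold change was 2.62 (edgeR adjusted p = 2.3e-05). CTNND2, the neuronal delta-catenin, rose as well (1.86, edgeR adjusted p = 0.000516), with 267 ± 14.1 CPM in N, 163 ± 18.2 in bIP, 58.7 ± 19.3 in bRG and 73.9 ± 27.6 in aRG. LIMD1 and AJUBA, LIM proteins of junctions, fell, with log2 fold changes in N against aRG of -2.36 (edgeR adjusted p = 4.25e-05) and -3.61 (0.000327).

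In the wider cadherin superfamily of 24 tested genes, 7 rose and 4 fell in N against aRG, or 45.8%, at a list median of -0.02 (log2), and 6 rose and 2 fell in bIP against aRG, or 33.3%. CELSR1, a planar polarity cadherin of progenitors, averaged 17.9 ± 4.55 CPM in N, 21.5 ± 5.61 in bIP, 145 ± 9.89 in bRG and 173 ± 20.4 in aRG. CELSR3, its neuronal relative, averaged 400.1 ± 37.7 CPM in N, 362 ± 48.4 in bIP, 67.1 ± 34.0 in bRG and 60.3 ± 13.5 in aRG. The pair thus moved in opposite directions, with log2 fold changes in N against aRG of -3.28 for CELSR1 (edgeR adjusted p = 9.83e-07) and 2.73 for CELSR3 (edgeR adjusted p = 1.71e-05). FAT1, a giant cadherin at the apical surface, averaged 12.3 ± 0.788 CPM in N, 129 ± 48.0 in bIP, 223 ± 108 in bRG and 248 ± 53.2 in aRG. CLSTN2, a synaptic calsyntenin, rose in N against aRG (2.24, edgeR adjusted p = 7.76e-05). FAT1 was the 1 gene of the list called in N against bIP (log2 fold change -3.38, edgeR adjusted p = 0.0035).

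Of 15 tested genes of the WAVE complex and of protocadherin tail partners, 4 rose and none fell in N against aRG, or 26.7%, at a list median of 0.48 (log2). They were DAB1 (log2 fold change 2.55, edgeR adjusted p = 2.97e-06), CYFIP2 (1.77, 3.69e-05), WASF1 (1.37, 0.00139) and PTK2B (1.72, 0.0332). DAB1, the adaptor that carries the Reelin signal, averaged 445 ± 88.1 CPM in N, 233 ± 55.9 in bIP, 53.8 ± 12.9 in bRG and 75.8 ± 15.1 in aRG. CYFIP2 is a WAVE complex subunit that also binds delta protocadherin tails. In bIP against aRG 3 of the 15 rose, or 20.0%, which is near the background.

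Of 8 tested repressors of epithelial cadherins 2 rose and 1 fell in N against aRG, or 37.5%, at a list median of 1.38 (log2), and the same counts held in bIP against aRG. ZEB2 averaged 568 ± 70.3 CPM in N, 299 ± 63.2 in bIP, 120.5 ± 24.7 in bRG and 111 ± 25.8 in aRG. ZEB1, its close relative, averaged 55.4 ± 10.2 CPM in N, 77.7 ± 16.0 in bIP, 363 ± 116 in bRG and 313 ± 80.2 in aRG. SCRT2, a repressor of the Snail family, averaged 70.9 ± 2.29 CPM in N, 71.2 ± 27.4 in bIP, 20.4 ± 6.20 in bRG and 16.5 ± 5.76 in aRG. These 3 were the genes called in N against aRG, at log2 fold changes of 2.36 for ZEB2 (edgeR adjusted p = 5.46e-06) -2.50 for ZEB1 (5.4e-05) and 2.10 for SCRT2 (0.000314). Among 13 tested genes of cadherin shedding and cleavage MMP24, which cuts N-cadherin at the cell surface in mouse, rose in N against aRG (1.67, edgeR adjusted p = 0.00498) and was the 1 gene called there, or 7.69%, below the background. In bIP against aRG 1 gene of this list rose and 2 fell, or 23.1%, beside 18.4% of all genes tested. Of 10 tested factors of the clustered promoters none was called in N against aRG. Unadjusted, 1 had an edgeR p under 0.05, beside 5125 of all 16804 genes tested. STAG1, a cohesin subunit, fell in bIP against aRG (-0.71, edgeR adjusted p = 0.0347) and averaged 36.5 ± 4.35 CPM in bIP and 59.7 ± 2.95 CPM in aRG. No gene of these 6 lists was called in bRG against aRG.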

How the data were processed

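RNA of 10000 sorted cells per library was amplified with Smart-seq2, with 12 to 17 PCR cycles and no molecular identifiers, per the labels' protocols. The authors deposited 2 tables of raw counts per gene, not normalized. Reads were aligned with STAR, and hg38 is the build, per the submitters' processing notes; for the aligner's version, the annotation, the counting tool and strandedness: not given in the sources used here. Only the table's name gives the gorGor6 build. The hg38 table was used for all results and the gorGor6 table as an alternative. Tables held 0 columns of other samples. One neuron column carries a number that no neuron label has, so it is used as the unnumbered library of its population. Samples were grouped by the labels, and counts of no replicate pair agreed within sampling noise.

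Counts were filtered with filterByExpr (minimum count 10), scaled by TMM and fitted with edgeR 4.0.16 in R 4.3.3, with 1 mean per population over all 13 libraries. All 6 comparisons of populations were tested with the quasi-likelihood F-test, and p was adjusted after Benjamini and Hochberg over 16804 genes, with calls at 0.05. Intervals are the log2 fold change ± 1.96 standard errors. The procedure was tested on simulated data. Alternatives were DESeq2 1.42.0, DESeq2 size factors, no low-count filter, the gorGor6 table, fits on the populations compared, a replicate block and the removal of each library. Leaving bRG library 3 out of the shared fit, and a term for libraries 1 and 2 against 3 and 4, were added after seeing the data.

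Members and gene lists were chosen with earlier results of these data known. Named are unclustered members called in at least 1 comparison with a mean of 5 CPM or more in a population, and the 8 with the highest mean CPM. In each cluster the 3 with the smallest p among populations and the 1 with the highest mean CPM are named, and of other lists up to 4 genes with the smallest p. RefSeq names of overlapping genes come from another gorilla assembly, in which 40 of the 85 members were found once, so no coordinates or sequences are printed. Smart-seq2 reads are not independent molecules, so low counts carry more error than counting gives.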

Additional observations from a re-analysis of the deposited data

Results flagged for a closer look

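In 5 of 64 groups of 4 libraries, over the named members, 1 library stood far from the other 3 by Dixon's criterion, and chance gives about 1 in 20. CDH9 was at 0.118 CPM in bRG library 3, against 3.05 to 3.42 CPM in the other bRG libraries. CDH10 was at 146 CPM in bRG library 3, against 94.5 to 101 CPM in the others. PCDHB9 was at 12.5 CPM in bRG library 1, against 4.24 to 5.23 CPM, and PCDHGA3 was at 33.7 CPM in bRG library 4, against 20.4 to 22.0 CPM. PCDHA6 was at 2.11 CPM in aRG library 3, against 3.00 to 3.09 CPM in the other aRG libraries.

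The gorGor6 table holds genes of these families that the hg38 table does not list, so no comparison above used them. PCDH19, a delta-2 protocadherin whose loss causes an epilepsy in humans, had 3539 counts over the 13 libraries and averaged 9.29 ± 3.08 CPM in N, 15.2 ± 3.29 in bIP, 17.5 ± 11.6 in bRG and 15.1 ± 6.62 in aRG. PCDH11X had 93 counts and PCDH11Y had 5. The antisense genes of PCDH9 had 429 counts for PCDH9-AS2, 374 for PCDH9-AS3 and 179 for PCDH9-AS4. PCDH9-AS2 averaged 3.79 ± 2.40 CPM in N, 2.99 ± 1.54 in bIP, 0.333 ± 0.283 in bRG and 1.12 ± 0.514 in aRG, in the same direction as PCDH9 itself. PCDH9-AS3 averaged 2.34 ± 0.261 CPM in N, 3.48 ± 0.475 in bIP, 0.613 ± 0.569 in bRG and 0.670 ± 0.419 in aRG. Among pseudogenes, PCDHB18P had 8104 counts, PCDHB17P 3320, PCDHGB9P 1743, PCDHB19P 1013, PCDHGB8P 590 and PCDH8P1 232. PCDHB18P averaged 60.3 ± 32.8 CPM in N, 34.2 ± 10.2 in bIP, 25.2 ± 13.9 in bRG and 24.7 ± 6.25 in aRG. Reads of pseudogenes and of their close paralogs cannot be told apart here.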

How the results depend on the processing

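No call of a named member changed direction under any alternative. DESeq2 kept 68 of 68 calls, DESeq2 size factors 67, no low-count filter 67, fits on the populations compared 63, and counts on gorGor6 kept 58 of 66. Counts moved by over 1.5 times in the following cases, whose cause was not tested. With DESeq2, 1 unclustered member was called in bRG against aRG (CDH6). In N against bIP 1 (CDH18) was called with DESeq2, with only these populations fitted and with bRG library 3 out of the shared fit. With counts on gorGor6, 2 clustered members were called in bIP against aRG and 1 in N against aRG. Clustered calls in N against bRG fell to 1 with only these populations fitted, and those in N against aRG came to 5 with bRG library 3 out. Over the removal of each library, unclustered calls ranged from 6 to 13 in N against aRG, 9 to 16 in N against bRG, 10 to 13 in bIP against aRG and 12 to 16 in bIP against bRG. Clustered calls ranged from 0 to 4 in N against aRG, 0 to 5 in N against bRG, 1 to 3 in bIP against aRG and 0 to 2 in bIP against bRG. Removing either N library left 1 library in that population and ended part of the named N calls. Whether this came from the smaller number of libraries or from differences between the N libraries was not tested. Counts of members called in the alternative fits, here and in the Results, stand without the share of all genes called in the same fit. A change in such a count is therefore not a result about these members alone. Libraries with the same number share only that number: correlations of their deviations ran from -0.0127 to 0.387, and not every library correlated best with its own number (bRG 1 with aRG 2, 0.148). With the replicate block the counts were 0 unclustered and 0 clustered in bRG against aRG, 14 and 5 in bIP against aRG, and 14 and 4 in bIP against bRG; the term for libraries 1 and 2 against 3 and 4 also gave 4 clustered calls there. No paired analysis was possible because the unnumbered neuron library has no number, for the comparisons with N. Depth limits members under 1 CPM, where 3 counts amount to 0.270 to 0.542 CPM.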
